A study of Homo sapiens with 4 samples.

Results

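The genes that encode the proteasome and its assembly factors were compared between octanoate and vehicle in A375 cells, an established human melanoma line. They were the rows of the expression table whose symbol is PSMA to PSMG followed by a number, 49 in all among 56832 rows. Of these, 46 passed a filter on low values (a normalised count averaging 10 or more across the 4 libraries) and were kept, as were 20250 rows in all. The cells, labelled wild type and grown in DMEM with 10% FBS, were kept for 48 h with 1 mM octanoate (a saturated fatty acid of medium chain length) or with the isopropanol vehicle. Each group has 2 libraries. The stated aim was to find genes and gene signatures that go up under the treatment. The labels do not say whether the 2 libraries of a group came from separate cultures, so p-values measure the spread between these libraries only, which may be technical. A normalised count is the read count of a gene divided by a single scaling factor for its library, so a value is compared between libraries of the same gene.

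The proteasome is the barrel-shaped protease that degrades ubiquitin-tagged proteins. Its 20S core is made of stacked rings of alpha and beta subunits, with the active sites on PSMB5 (chymotrypsin-like), PSMB6 (caspase-like) and PSMB7 (trypsin-like). The 19S cap recognises and unfolds substrates and feeds them into the core. Interferon-gamma induces PSMB8, PSMB9 and PSMB10, which replace the constitutive catalytic subunits to form the immunoproteasome, together with the PA28 activator subunits PSME1 and PSME2, and these favour the production of peptides for MHC class I. When proteasome activity is limiting, the transcription factor NRF1 (gene NFE2L1) raises most subunit genes together through antioxidant response elements in their promoters.

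Promoter sequence is shown for 9 members that belong to the immunoproteasome or were called. The stretch of each holds the letters of an element by which interferon or NRF1 is known to act on this gene family. PSMD9 and PSMD12, which were also called, hold such letters in the same stretch and are not shown. The set was chosen for these matches, and other called members, such as PSMA2, PSMC2 and PSMD6, hold neither element. Each stretch runs 5′ to 3′ in the direction of the gene, from 180 bases before its RefSeq start to 15 bases after it (GRCh38.p14). Capitals mark the letters TGACNNNGC (core of the antioxidant response element) or GAAA, any 2 bases, GAAA (interferon response element), read on either strand. PSMB8 and PSMG2 have 2 listed starts, and the one whose stretch holds a match is shown.
PSMB8, chr6:32844033-32844227, minus strand: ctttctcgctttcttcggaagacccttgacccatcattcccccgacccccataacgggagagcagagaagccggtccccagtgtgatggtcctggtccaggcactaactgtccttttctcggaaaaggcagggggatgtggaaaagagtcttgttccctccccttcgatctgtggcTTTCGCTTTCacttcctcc
PSMB9, chr6:32854012-32854206, plus strand: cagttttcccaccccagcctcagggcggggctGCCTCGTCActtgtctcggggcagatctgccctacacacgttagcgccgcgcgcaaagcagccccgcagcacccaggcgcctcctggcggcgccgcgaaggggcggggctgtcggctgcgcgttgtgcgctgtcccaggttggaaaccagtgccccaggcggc
PSMB10, chr16:67936836-67937030, minus strand: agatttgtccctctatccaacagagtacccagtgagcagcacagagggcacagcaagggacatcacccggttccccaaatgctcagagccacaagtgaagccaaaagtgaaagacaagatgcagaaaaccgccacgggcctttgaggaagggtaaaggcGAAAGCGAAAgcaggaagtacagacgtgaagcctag
PSME1, chr14:24136014-24136208, plus strand: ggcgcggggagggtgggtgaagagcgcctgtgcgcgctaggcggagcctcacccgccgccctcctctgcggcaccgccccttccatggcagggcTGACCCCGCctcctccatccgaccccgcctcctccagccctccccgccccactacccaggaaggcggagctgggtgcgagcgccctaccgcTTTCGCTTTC
PSME2, chr14:24146596-24146790, minus strand: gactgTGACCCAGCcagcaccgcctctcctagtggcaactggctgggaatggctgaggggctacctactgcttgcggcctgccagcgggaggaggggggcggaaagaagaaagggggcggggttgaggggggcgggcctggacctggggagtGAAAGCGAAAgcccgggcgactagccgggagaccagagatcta
PSMB4, chr1:151399393-151399587, plus strand: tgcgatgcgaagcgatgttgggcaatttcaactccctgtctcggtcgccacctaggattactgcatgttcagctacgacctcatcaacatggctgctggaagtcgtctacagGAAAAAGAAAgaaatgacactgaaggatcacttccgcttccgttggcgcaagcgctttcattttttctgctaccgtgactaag
PSMD5, chr9:120842908-120843102, minus strand: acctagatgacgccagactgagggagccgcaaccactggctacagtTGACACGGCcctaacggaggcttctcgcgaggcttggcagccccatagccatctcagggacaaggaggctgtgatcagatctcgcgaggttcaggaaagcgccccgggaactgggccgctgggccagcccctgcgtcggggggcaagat
PSMG2, chr18:12658558-12658752, plus strand: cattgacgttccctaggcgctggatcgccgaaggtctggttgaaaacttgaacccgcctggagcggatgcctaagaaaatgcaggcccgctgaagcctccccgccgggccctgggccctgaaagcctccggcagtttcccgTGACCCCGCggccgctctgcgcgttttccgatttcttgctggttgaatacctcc
PSME4, chr2:53970979-53971173, minus strand: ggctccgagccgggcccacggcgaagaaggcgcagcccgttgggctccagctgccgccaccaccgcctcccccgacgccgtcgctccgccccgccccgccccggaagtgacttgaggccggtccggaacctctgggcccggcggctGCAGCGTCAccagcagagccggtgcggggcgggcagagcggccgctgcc

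Of the 46 tested members, 40 had an entry in the promoter table, and PSMA7, PSMB1, PSMB6, PSMB7, PSMD4 and PSMG3 had none. In windows from 250 bases before to 50 bases after the start, the antioxidant core was present in 15 of 42 member genes with a promoter (35.7%; PSMA8 and PSMB11, which were not tested, are among the 42), against 16.1% of all 27305 genes in the table. The interferon response letters were present in 7 of the 42 (16.7%), against 4.4% of all genes: PSMB8, PSMB10, PSME1 and PSME2, and outside the immunoproteasome PSMA4, PSMB4 and PSMG4. The gamma-activated site TTCNNNGAA was present in 8 of 42, against 9.4% of all genes, and CCAAT in 20 (47.6%, against 39.7%). Matches can overlap between motifs, and a match describes the letters only.

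Recovered reads per library ranged from 67785956 to 78005035. The libraries of each group differed by more than sampling noise (chi-square per degree of freedom 4.77 for vehicle and 6.5 for octanoate), and all 4 were kept as separate. Among melanoma markers, SOX10 had between 34072 and 41363 normalised counts and AXL between 22061 and 30450, while the pigment genes TYR, MLANA and PMEL had at most 3.93, 52.0 and 98.2. Immune cells, which express the immunoproteasome constitutively, have as defining markers PTPRC, CD3E and CD79A, with at most 10.8, 2.91 and 8.67 normalised counts in any library. The summed level of all 6 immune markers, mostly LYZ, was 856 and 815 in vehicle and 951 and 989 in octanoate. PTPRC (10.8 and 8.72 in vehicle, 1.93 and 7.59 in octanoate) and CD3E (1.96 and 2.91, then 1.93 and 1.08) were lower in both octanoate libraries. CD79A (4.91 and 2.91, then 5.78 and 8.67) was higher in both. PTPRC, CD3E and CD79A were below the filter on low values and were not tested. LYZ rose (635 and 574, then 700 and 749, limma adjusted p 0.0273). Among the melanoma markers, MITF fell by 28.2% and S100B by 54.0%, while AXL rose by 33.6% and PMEL by 46.3%. COL1A1 of fibroblasts fell by 38.1%. PECAM1 and VWF of endothelium rose by 92.6% and 41.8%, from at most 122 and 65.8 normalised counts in vehicle. The part of these changes in the results on proteasome genes was not tested.

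Most proteasome genes had slightly lower counts under octanoate: 35 of the 46 log2 differences were below 0 and 11 above, between -0.42 (PSMB10) and 0.20 (PSMG3). Of the 46 members, 13 fell and 2 rose, and 31 did not pass the test (limma with Benjamini-Hochberg adjustment over all tested genes, adjusted p under 0.05). Over all tested genes 13.7% fell and 16.2% rose, and among the 9003 genes with a mean of at least 1000, 20% fell and 18.1% rose. Of the 42 members in that range 10 fell (23.8%) and 2 rose. Of the members 28.3% fell and 4.35% rose, and the share called in either direction, 32.6%, was near the background of 29.9%. The median log2 difference was -0.09 over the members and 0.005 over all tested genes. In 24 members both octanoate libraries lay below both vehicle libraries, and in 6 they lay above; for all tested genes these shares were 30.5% and 32.6%. Together the members took 0.760% and 0.753% of all reads under vehicle, against 0.723% and 0.711% under octanoate. In bulk RNA, fewer cells with a transcript and less of it per cell cannot be told apart.

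**Figure D1:**
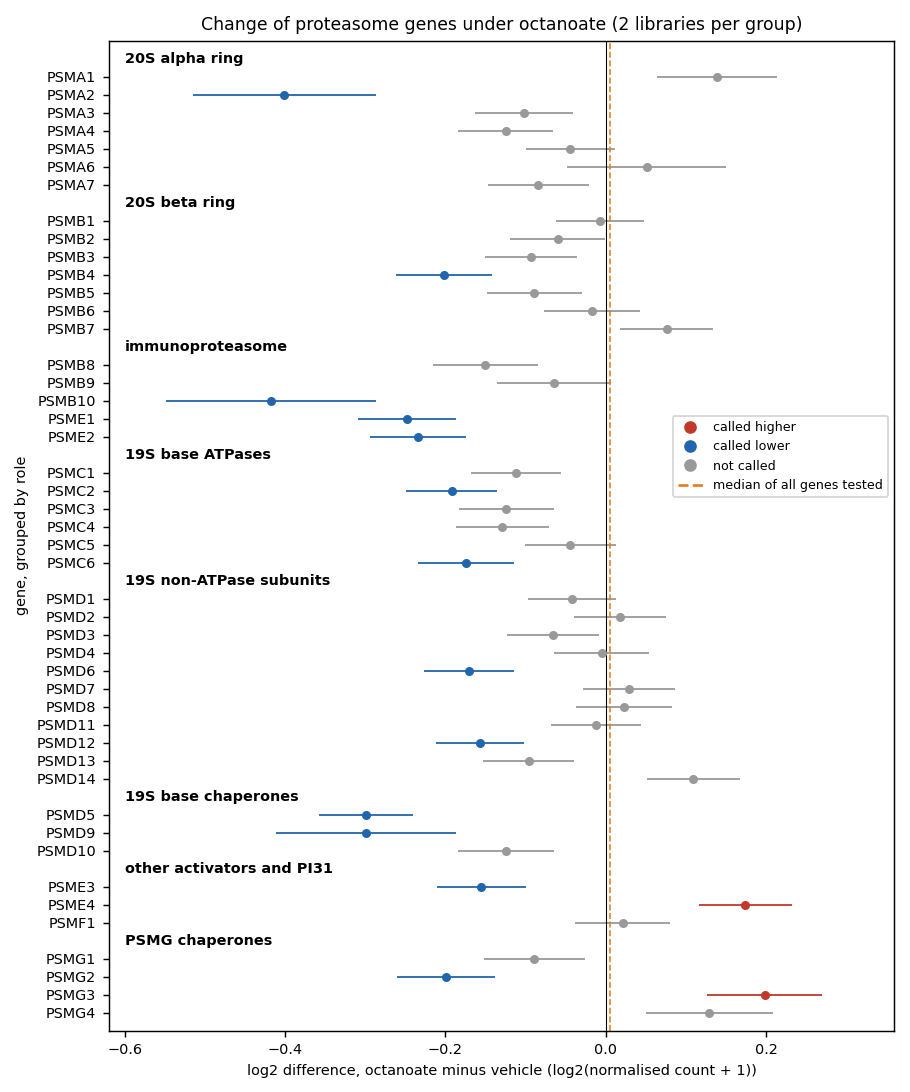
Log2 difference, octanoate minus vehicle, of each of the 46 members with its standard error (bars), grouped by role and coloured by the limma call; the dashed line is the median of all genes tested. Called members lie between -0.42 and 0.20, and all 5 immunoproteasome genes, all 6 ATPases and all 3 base chaperones lie below 0.

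The standard error of a member's log2 difference ran from 0.055 to 0.131, and the calls rest on a variance estimate shared between genes of similar level. With a variance prior that has no intensity trend, no member was called (smallest adjusted p 0.0901, with 6 members at an unadjusted p under 0.05), and with every detected gene in the fit PSMD5 alone was called (1 of 46 members lower, against 2.3% of all genes). Without vehicle 1, 2 members were called lower (PSMB10 and PSMD5) and 1 higher (PSMG3), and the lower share of 4.35% was under that of all genes in the same fit, 7.53%. Without octanoate 2, 4 were called lower (PSMB10, PSMD5, PSME1 and PSME2) and 1 higher (PSMG3), a lower share of 8.7% against 9.0% of all genes. The higher share of lower calls among the members than among all genes was thus not seen in these fits. In the authors' deposited table the count was smaller: 10 of the 46 members were lower and 1 was higher at an adjusted p under 0.05, against 6.01% and 6.89% of the rows of that table, and all 11 were also called by limma. The calls made by limma alone were PSMA2, PSMB10, PSMD9 and PSMG3. The authors' deposited table gave log2 fold changes of -0.298 for PSMD5 (SE 0.065, adjusted p 5.01e-05), -0.249 for PSME1 (adjusted p 0.00214) and 0.176 for PSME4 (adjusted p 0.0152).

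All 5 immunoproteasome genes had log2 differences below 0, and their median was -0.23, against -0.07 for the 20S core, -0.07 for the 19S cap and 0.02 for the PSMG chaperones. Of all 20250 tested genes, 9979 had a difference below 0. Of the 5 immunoproteasome genes, PSME1, PSME2 and PSMB10 fell (60%), and PSMB8 and PSMB9 did not pass the test. Over all tested genes 13.7% fell, and among those with a mean of at least 1000, 20% fell. PSME1 and PSME2 encode the alpha and beta subunits of PA28, a ring that docks on the core in place of the 19S cap and opens it. PSME1 (chr14:24136158-24138967, plus strand, GENCODE 29) had normalised counts of 6067 and 5581 under vehicle, and of 5015 and 4787 under octanoate. Both octanoate values lay below both vehicle values. Its mean fell by 15.8% (-0.25 on the log2 scale, SE 0.061, limma adjusted p 0.00296). PSME2 ends 4395 bases from the end of PSME1, on the other strand (chr14:24143362-24147570). It had 6352 and 5850 in vehicle and 5281 and 5087 in octanoate, again without overlap (log2 difference -0.23, SE 0.060, limma adjusted p 0.00442). Both genes were called under 11 of the 14 alternatives. PSME2 shares stretches of at least 95% identity with 3 processed pseudogenes, so its count is uncertain. Exons of both genes also overlap an exon on the opposite strand. As shown above, the promoters of both genes hold the interferon response letters and the antioxidant core.

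The catalytic immunoproteasome subunits moved less clearly. PSMB8, which replaces PSMB5, had 2730 and 2546 normalised counts in vehicle and 2429 and 2324 in octanoate. The groups did not overlap, but the log2 difference of -0.15 (SE 0.065) did not pass the test (limma adjusted p 0.0855), whereas PSMB8 was called with equal column totals, with the replicate number as a block and with edgeR. PSMB9, which replaces PSMB6, had 1576 and 1442 in vehicle and 1447 and 1436 in octanoate, and the groups overlapped (log2 difference -0.065, SE 0.071, limma adjusted p 0.544). PSMB10, which replaces PSMB7, had 227 and 243 in vehicle and 164 and 189 in octanoate. It fell by 25.1%, the largest relative fall among the members (log2 difference -0.42, SE 0.131, limma adjusted p 0.0181), at counts lower than those of PSMB8 and PSMB9. In GENCODE 29, 45.3% of its principal transcript is shared with another gene on the same strand, so its reads may be split.

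Their constitutive counterparts were not called. PSMB5 had 11255 and 10440 in vehicle and 10485 and 9904 in octanoate, with overlapping groups (log2 difference -0.09, limma adjusted p 0.274). PSMB6 had 8430 and 7725 in vehicle and 8198 and 7755 in octanoate, so that the octanoate values lay inside the vehicle range. PSMB7 had 25356 and 23462 in vehicle and 25782 and 25634 in octanoate, both above vehicle, with a log2 difference of 0.08 (limma adjusted p 0.357). The ratio of each immunoproteasome subunit to the subunit it replaces cancels the scaling of the library. For PSMB8 over PSMB5, the log2 ratio of the counts was -2.04 with vehicle (both libraries) and -2.11 and -2.09 with octanoate, a difference of -0.06. For PSMB9 over PSMB6 it was -2.42 and -2.42 in vehicle and -2.50 and -2.43 in octanoate, a difference of -0.05. For PSMB10 over PSMB7 it was -6.80 and -6.59 in vehicle and -7.29 and -7.08 in octanoate, a difference of -0.49. All 3 ratios were lower in both octanoate libraries than in either vehicle library. For PSMB9 over PSMB6 this separation was smaller than the gap between the 2 octanoate libraries. The exact two-sided permutation p of 0.333 for each ratio is the smallest that 2 libraries against 2 can give.

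**Figure D2:**
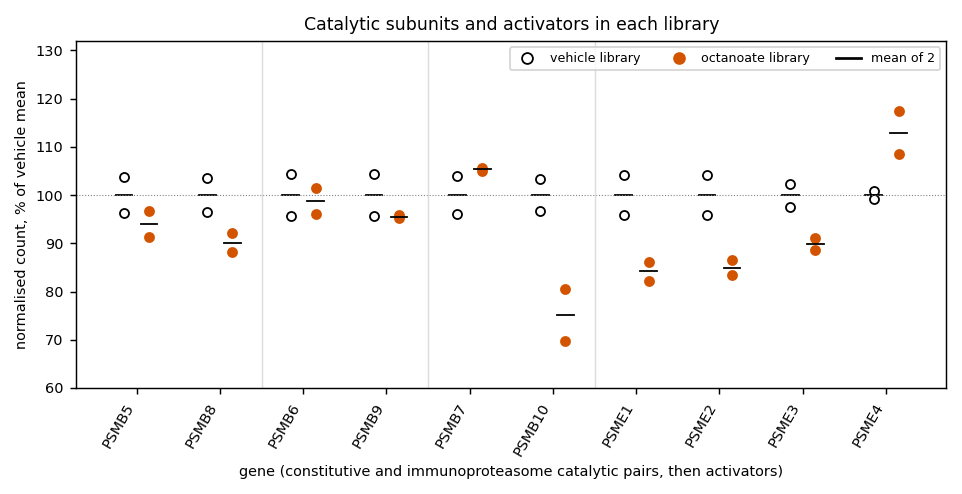
Normalised count of the 3 catalytic pairs and of the 4 activator genes in each library, as percent of the gene's vehicle mean (open points, vehicle; filled points, octanoate; short lines, mean of 2); the vertical axis does not start at 0. In PSMB8, PSMB10, PSME1, PSME2 and PSME3 both octanoate libraries lie below both vehicle libraries, and in PSMB7 and PSME4 they lie above.

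Per length of the principal transcript, PSMB8 stood at 27.9% and 28.1% of the level of PSMB5 with vehicle, and at 26.7% and 27.0% with octanoate. PSMB9 stood at 20.4% and 20.3% of the level of PSMB6 in vehicle and at 19.2% and 20.2% in octanoate. With merged exon length in place of the principal transcript, the vehicle values were 14.3% and 14.4% for PSMB8 and 8.81% and 8.80% for PSMB9. The catalytic subunits PSMB8 and PSMB9 were below their constitutive counterparts in vehicle-treated cells under either length. For PSMB10 the vehicle values were 0.719% and 0.834% of the level of PSMB7 per principal transcript length, with the limit on its count given above.

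The other activators went in both directions. PSME3 encodes PA28-gamma, a nuclear activator of the core, and fell by 10.2%, from 21633 and 20624 in vehicle to 19226 and 18728 in octanoate (log2 difference -0.155, SE 0.056, limma adjusted p 0.0414). PSME4 encodes PA200, a large single-chain activator that binds the ends of the core, and rose by 12.9%. Its values were 15341 and 15110 in vehicle and 16506 and 17888 in octanoate, without overlap (log2 difference 0.17, SE 0.058, limma adjusted p 0.0246). PSME4 was called under 9 of the 14 alternatives. PSMF1, which encodes the PI31 protein that binds the core, had 6739 and 6313 in vehicle and 6820 and 6427 in octanoate, with overlapping groups (log2 difference 0.02, limma adjusted p 0.826).

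In the 20S core, 2 of 14 constitutive subunits fell (14.3%, against 13.7% of all tested genes), none rose, and the median log2 difference was -0.07. PSMB4, a non-catalytic subunit of the beta ring and the member with the highest counts, fell by 13.1%, from 45043 and 41393 in vehicle to 38124 and 36935 in octanoate (log2 difference -0.20, SE 0.060, limma adjusted p 0.0130). Its groups did not overlap. PSMA2, a subunit of the alpha ring, fell by 24.2%, from 422 and 416 to 358 and 281 (log2 difference -0.40, SE 0.114, limma adjusted p 0.00982). Octanoate 2 was the lowest library for PSMA2, whose 2 octanoate values lay further apart than its vehicle values. PSMA2 was called under 9 of the 14 alternatives but not in the authors' deposited table (adjusted p 0.0807). The remaining 12 subunits had log2 differences between -0.125 (PSMA4) and 0.14 (PSMA1). PSMA1, another subunit of the alpha ring, had 1039 and 1004 in vehicle and 1115 and 1136 in octanoate (limma adjusted p 0.170). PSMA3, PSMA4, PSMA5 and PSMB3 were lower in both octanoate libraries than in either vehicle library but were not called, and PSMA6 and PSMB7 were higher in the same way. In all, 6 of the 14 core subunits were lower without overlap and 3 higher, against 30.5% and 32.6% of all tested genes.

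In the 19S cap 4 of 17 subunits fell (23.5%), none rose, and the median was -0.07. Over all tested genes 13.7% fell, and among those with a mean of at least 1000, where all 17 lie, 20% fell. All 6 ATPases of the base ring, which unfold the substrate, had a negative difference (median -0.13), and PSMC2 and PSMC6 fell. PSMC2 had 16008 and 15682 in vehicle and 14360 and 13390 in octanoate, a fall of 12.5% (log2 difference -0.19, SE 0.057, limma adjusted p 0.0128). PSMC6 had 7501 and 7678 in vehicle and 7060 and 6407 in octanoate, a fall of 11.4% (limma adjusted p 0.0304), and shares 1170 bases at 98.3% identity with a processed pseudogene. Among the 11 subunits that are not ATPases the median was -0.01, and PSMD6 and PSMD12, both subunits of the lid, fell. PSMD6 had 17397 and 16987 in vehicle and 15483 and 15054 in octanoate, a fall of 11.2% (limma adjusted p 0.0222). PSMD12 had 12991 and 12655 in vehicle and 11518 and 11483 in octanoate, a fall of 10.3% (limma adjusted p 0.0348), and was called under 8 of the 14 alternatives. PSMD14, the deubiquitinase that strips ubiquitin chains from the substrate, had the highest difference of the 19S genes, 0.11 (13743 and 13868 in vehicle, 15477 and 14324 in octanoate, limma adjusted p 0.163). PSMD4 and ADRM1, whose products are ubiquitin receptors of the cap, had differences of -0.005 (limma adjusted p 0.959) and 0.04 (limma adjusted p 0.685).

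The chaperones that assemble the base of the cap had a median of -0.30 over 3 members. Of these, 2 fell (66.7%, against 13.7% of all tested genes). PSMD5, which holds ATPase subunits during assembly and is not part of the finished complex, had 6267 and 6232 in vehicle and 5255 and 4909 in octanoate. The vehicle libraries were close to each other and both octanoate libraries lay below them. The fall of 18.7% (log2 difference -0.30, SE 0.059, limma adjusted p 0.000371) had the smallest p of the 46 members and was called under 13 of the 14 alternatives. PSMD9 had 331 and 337 in vehicle and 289 and 255 in octanoate, also a fall of 18.7% (SE 0.112, limma adjusted p 0.0473), and was called under 8 of 14. PSMD10, the oncoprotein gankyrin, had 5483 and 5209 in vehicle and 5061 and 4752 in octanoate (log2 difference -0.12, limma adjusted p 0.125). PAAF1, a further base chaperone outside the PSM names, fell from 2023 and 1851 to 1658 and 1712 (log2 difference -0.20, SE 0.069, limma adjusted p 0.0314). For all 4 base chaperones both octanoate libraries lay below both vehicle libraries, which held for 30.5% of all tested genes.

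Of the 4 chaperones of the core, 1 fell and 1 rose (25% each, against 13.7% and 16.2% of all tested genes). PSMG1 and PSMG2 form a pair that helps to build the alpha ring. PSMG1 had 4041 and 3734 in vehicle and 3762 and 3546 in octanoate, with overlapping groups (log2 difference -0.09, limma adjusted p 0.311). PSMG2 fell by 12.9%, from 3628 and 3456 to 3122 and 3050 (log2 difference -0.20, SE 0.061, limma adjusted p 0.0159). PSMG3 and PSMG4 form the other pair. PSMG3 rose by 14.7%, from 3124 and 2707 in vehicle to 3542 and 3143 in octanoate (log2 difference 0.20, SE 0.072, limma adjusted p 0.0410). The lower octanoate library of PSMG3 exceeded the higher vehicle library by less than the gap within either group, and the authors' deposited table did not call it. PSMG4 had 1148 and 1061 in vehicle and 1283 and 1136 in octanoate, with overlap (log2 difference 0.13, limma adjusted p 0.236). The median of the 4 genes was 0.02, and its sign depended on the libraries (-0.045 without octanoate 1, 0.085 without octanoate 2). POMP, an assembly factor of the core outside the PSM names, had 21390 and 21435 in vehicle and 21786 and 19347 in octanoate (log2 difference -0.06, limma adjusted p 0.497).

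The level of 5 members was below that of all others. Per length, PSMD9, PSMB10, PSMA2, PSMA6 and PSMA1 were the 5 lowest of the 46 members, at 119 and 121 (PSMD9) to 691 and 667 (PSMA1) normalised counts per kb in the vehicle libraries. The next member, PSMG4, had 1370 and 1270, and PSMA3, in the same ring as PSMA1, PSMA2 and PSMA6, had 10400 and 10600. The same 5 genes are the members for which the largest part of the principal transcript, from 43.8% (PSMD9) to 81.0% (PSMA6), is also exon sequence of another gene on the same strand in GENCODE 29. The other 41 members shared at most 0.1%. The annotation used for counting is not given in the sources used here, and the part of such overlaps in these counts was not tested. Without these 5 genes, 10 of the remaining 41 members fell (24.4%) and 2 rose (4.88%), with a median of -0.09. Among all genes with a mean of at least 1000, 20% fell and 18.1% rose.

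**Figure D3:**
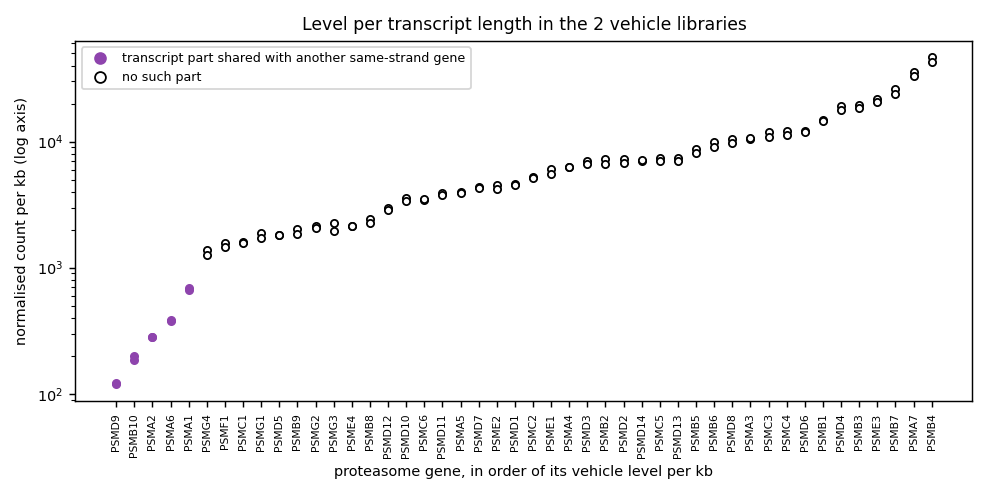
Normalised count per kb of principal transcript (log axis) of the 46 members in the 2 vehicle libraries, in rising order; filled points mark the 5 members that share 43.8% or more of that transcript with another gene on the same strand. These 5 lie lowest, between 119 and 691 per kb, and the others start at 1270.

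PSMA8, the alpha subunit of the testis proteasome, had 1 read in each vehicle library and none in the octanoate libraries, and PSMB11, the thymus subunit, and PSMD15 had no read. These 3 members were not tested. Apart from overlapping genes, PSMC1 and PSMD4 also share long stretches with processed pseudogenes, and 9 members in all share at least 100 bases at 95% identity with another gene. Exons of 19 members overlap an exon on the opposite strand, and whether counting used the strand is not given in the sources used here.

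Among 17 proteasome partners outside the PSM names, 4 fell (23.5%) and 1 rose (5.88%), and the median log2 difference was 0.03. Over all tested genes 13.7% fell and 16.2% rose, and among those with a mean of at least 1000, 20% and 18.1%. Besides PAAF1, the genes that fell were ZFAND5, an activator of 26S proteasomes (-0.18, limma adjusted p 0.0189), UBQLN2, a shuttle factor (-0.17, limma adjusted p 0.0312), and TXNL1, a thioredoxin-like protein of the cap (-0.17, limma adjusted p 0.0364), all as log2 differences. Of 9 genes of ubiquitin supply and extraction, 1 rose and 1 fell (11.1% each, against 16.2% and 13.7% of all tested genes). UBA6, an E1 enzyme, rose from 6946 and 7315 to 8742 and 9126 (log2 difference 0.325, SE 0.058, limma adjusted p 0.000115). VCP, the p97 segregase, fell from 45376 and 43533 to 38406 and 38305 (log2 difference -0.21, SE 0.058, limma adjusted p 0.00710).

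Of 12 genes of the NRF1 and NRF2 axis, 5 rose (41.7%) and 2 fell (16.7%), with a median log2 difference of 0.15. Over all tested genes 16.2% rose and 13.7% fell, and among those with a mean of at least 1000, 18.1% and 20%. NFE2L1 itself had 18383 and 17542 in vehicle and 20264 and 19346 in octanoate, without overlap, but did not pass the test (log2 difference 0.14, SE 0.057, limma adjusted p 0.0658). Its paralogue NFE2L3 rose by 59.4%, from 4753 and 4284 to 7709 and 6709 (log2 difference 0.67, SE 0.068, limma adjusted p 3.74e-08). The small MAF genes, whose products pair with NRF1 and NRF2 on the antioxidant response element, all 3 rose. MAFK had 1954 and 1792 in vehicle and 3787 and 3612 in octanoate (log2 difference 0.98, SE 0.065, limma adjusted p 2.89e-11), MAFF had a difference of 0.50 (limma adjusted p 9.48e-06) and MAFG one of 0.24 (limma adjusted p 0.00318). BACH1, which competes for the same element, rose from 3101 and 3104 to 4009 and 4246 (log2 difference 0.41, limma adjusted p 1.17e-05). DDI2, the protease that activates NRF1, fell from 3671 and 3728 to 3094 and 3389 (log2 difference -0.19, limma adjusted p 0.0229). KEAP1, which targets NRF2 for degradation, fell from 6798 and 6260 to 5489 and 5219 (log2 difference -0.285, limma adjusted p 0.000782). NFE2L2, the gene of NRF2, had a difference of -0.08 (limma adjusted p 0.316).

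Members with the antioxidant core in their promoter were found on both sides. It was present in 6 of 13 members that fell (PSMD5, PSMD9, PSMD12, PSME1, PSME2 and PSMG2), in PSME4, which rose, and in 8 of 26 that were not called. The interferon response letters were present in 4 of 13 members that fell (PSMB4, PSMB10, PSME1 and PSME2) and in 3 of 26 that were not called (PSMA4, PSMB8 and PSMG4). Whether these shares differ between called and other members was not tested.

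Interferon signalling genes and the genomic neighbours of the immunoproteasome genes went in both directions. Of 15 such genes, 4 fell (26.7%, against 13.7% of all tested genes) and 2 rose (13.3%, against 16.2%). Among tested genes with a mean of at least 1000, where most of the 15 lie, 20% fell and 18.1% rose. Their median log2 difference was -0.01. IRF1, which drives the immunoproteasome genes, had 573 and 564 in vehicle and 506 in both octanoate libraries, without overlap (log2 difference -0.17, SE 0.090, limma adjusted p 0.173). IRF2 fell (-0.19, limma adjusted p 0.0248), and so did JAK1 (-0.155, limma adjusted p 0.0450), TAPBP (-0.19, limma adjusted p 0.0263) and IRF9 (-0.64, limma adjusted p 0.0413), the last with at most 73.6 normalised counts and an exon overlap with another gene over its whole principal transcript. NLRC5, the activator of MHC class I genes, rose from 914 and 924 to 1090 and 1030 (log2 difference 0.20, SE 0.077, limma adjusted p 0.0468), and JAK2 rose by 0.205 (limma adjusted p 0.0396). TAP1, a peptide transporter gene whose RefSeq start lies 488 bases from that of PSMB9 in the opposite orientation, had 2571 and 2214 in vehicle and 2600 and 2563 in octanoate (log2 difference 0.11, limma adjusted p 0.239). TAP2 had 1553 and 1492 in vehicle and 1659 and 1733 in octanoate, without overlap (log2 difference 0.16, limma adjusted p 0.0927), and 80.5% of its principal transcript is shared with another gene on the same strand. The 2 TAP genes thus had positive differences where PSMB8 and PSMB9, in the same stretch of chromosome 6, had negative ones, and the difference between them was not tested.

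**Figure D4:**
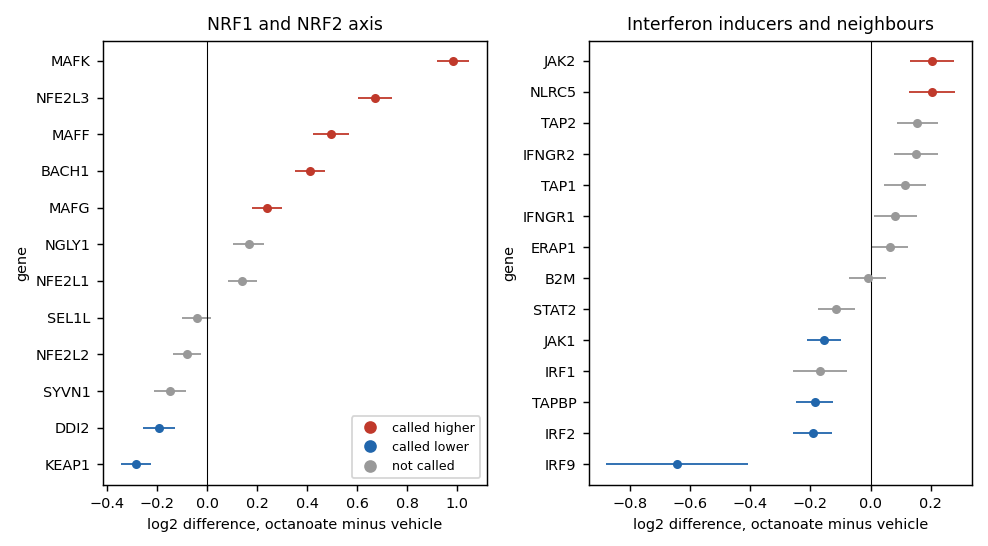
Log2 difference, octanoate minus vehicle, with its standard error (bars) for 12 genes of the NRF1 and NRF2 axis and 14 of the 15 genes of interferon signalling and the immunoproteasome neighbourhood, coloured by the limma call. On the left, MAFK reaches 0.98 and KEAP1 -0.285; on the right all plotted genes but IRF9 (-0.64) lie between -0.19 and 0.21.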

How the data were processed

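RNA sequencing was analysed from 4 A375 libraries, 2 vehicle and 2 octanoate. Per the submitters' processing notes, the tools were bcl2fastq 2.17, Trim Galore, STAR 2.4, Picard, HTSeq 0.9.1 and DESeq2 with build hg38. The annotation and the use of strand are not given in the sources used here. The deposited signal per gene is a normalised count (gene counts divided by 1 DESeq2 size factor per library, by the authors). Dividing a library's values by the smallest positive one gave whole numbers throughout (100% within a tolerance of 1e-06), so read counts could be recovered. The authors' deposited table of the comparison gives a mean signal, a log2 fold change, a test score and p-values, per the file headers.

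Genes with a mean of at least 10 were fitted with limma 3.58.1 (R 4.3.3) on log2(normalised count + 1), a scale that understates changes of low genes, with a variance prior that follows mean intensity, and treatment as the only term. P-values are two-sided, and Benjamini-Hochberg adjustment ran over 20250 genes. The members and gene lists were chosen with earlier results of these data known, and counts and medians over them carry no test. All members could be named, with values in every library for the catalytic subunits, activators, PSMG genes and called members. List genes were named when called, as were IRF1, NLRC5, TAP1, TAP2, POMP, ADRM1 and NFE2L1; list genes named beyond these were chosen after their values were seen. Some list genes counted in the text are not reported here by name. ECPAS and UFD1 were found under the older names KIAA0368 and UFD1L. Alternatives included edgeR 4.0.16 and DESeq2 1.42.0 on recovered reads. The fits were tested on simulated data. Promoters are from RefSeq (GRCh38.p14), and transcripts and overlaps from GENCODE 29, both of the same build as the notes name. Shared sequence was searched with blastn 2.17.0 at 95% identity over at least 100 bases.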

Additional observations from a re-analysis of the deposited data

How the results depend on the processing

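The counts of 13 members lower and 2 higher held exactly under both pseudocounts, the filter at a mean of 50 and TMM scaling, and were 18 and 2 with equal column totals, 14 and 2 with edgeR and 13 and 1 with DESeq2 (12 of the 15 calls kept). With no filter on low values they were 1 and 0, and without an intensity trend 0 and 0; the degrees of freedom of the prior dropped to 3.45 and 1.57, from 21.2. With 1 library left out, between 2 (without vehicle 1) and 9 members were lower and between 0 (without vehicle 2) and 1 higher, while 7.53% to 11.2% of all genes were lower; the members' lower share was under that of all genes without vehicle 1 and without octanoate 2. What a replicate number marks is not stated. With it as a replicate block, 21 members were lower and 3 higher, including all 15 calls, and 41.4% of all genes were called. Same-numbered libraries deviated together with r = 0.126. With 2 libraries a group both pairs must give the same r, so this is 1 value. Over the 41 members without a shared same-strand transcript part, an alternative chosen after seeing the data (as was the merged exon length), 10 were lower and 2 higher.

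With 1 library left out, the median log2 difference ran from -0.108 (without octanoate 1) to -0.018 (without octanoate 2) for the 20S core and from -0.293 (without vehicle 2) to -0.175 (without vehicle 1) for the immunoproteasome genes, from -0.106 (without vehicle 2) to -0.031 (without vehicle 1) for the 19S cap and, with a change of sign, from -0.045 (without octanoate 1) to 0.085 (without octanoate 2) for the PSMG genes. Differences near 0 changed sign between such fits, from -0.02 to 0.005 for PSMB1, -0.08 to 0.046 for PSMB6, -0.091 to 0.003 for PSMC5, -0.042 to 0.017 for PSMD11, -0.025 to 0.06 for PSMD2, -0.063 to 0.052 for PSMD4, -0.039 to 0.084 for PSMD8, -0.026 to 0.069 for PSMF1, -0.146 to 0.025 for POMP and -0.049 to 0.131 for ADRM1; none of these genes was called, and the cause was not tested. With 2 libraries a group, an exact permutation test cannot go below a p of 0.333.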
